A study of Mus musculus with 8 samples.

Results

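The genes described are 35 genes of blood vessels and of vessel growth, and they were measured in the brown fat of mice labelled Prdm16 knockout and of wild-type mice. They were chosen by name: every non-control probe whose gene name on the array is one of the 35 was used, 45 probes in all. Of the 35 genes, 34 passed the filter on dim probes, out of 21715 genes tested on the arrays. Prox1, a transcription factor of lymphatic vessels, was well above background in 0 of its 16 channel measurements and has no value. Of the 34 genes, 33 were well above background in all 16 measurements and Flt4 in 14, so none was kept through a single group.

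The product of Prdm16 is a transcriptional co-regulator, best known for helping to specify brown adipocytes. The arrays compared Prdm16 knockout with wild-type mice at 2 ages, 6 weeks and 11 months, with 4 biological replicates per group according to the labels. Each 2-colour array carried knockout and wild-type RNA of the same age, and 2 of the 4 arrays per age had the dyes the other way round. The labels do not give the cells in which Prdm16 was deleted, the promoter of any Cre, the deleted part of the gene, the sex or the strain. The ages were run as separate batches on separate slides, so age cannot be told apart from batch. Values are given as log2 of knockout over wild type. A fitted value is the limma estimate for an age ± its standard error (n = 4 arrays per age), and a gene rose or fell where its Benjamini-Hochberg adjusted p over all 21715 genes was below 0.05.

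Brown fat is densely supplied with capillaries. Adipocytes and other cells release vascular endothelial growth factors, which act on receptor tyrosine kinases and neuropilin co-receptors of endothelial cells, and angiopoietins act on the receptor Tek. Low oxygen stabilises the factors encoded by Hif1a and Epas1, which are known to drive transcription of Vegfa. The tissue was assayed as a whole, so fewer cells of a type and less RNA per cell cannot be told apart in any ratio below.

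The pattern over these genes was mixed in direction. Nos3, the nitric oxide synthase of endothelial cells, rose at both ages, while the growth factors Vegfa and Vegfb and the co-receptor Nrp1 fell at both. At 6 weeks 8 of the 34 genes passed the test, beside 16.2% of all genes: Nos3 and Hif1a were higher (9.21% of all genes were), and Pecam1, Flt1, Tie1, Nrp1, Vegfa and Vegfb were lower (7.02%). At 11 months 10 passed, beside 34.7% of all genes: Plvap, Vwf, Robo4, Nos3, Angpt1 and Erg were higher (17.9%), and Nrp1, Nrp2, Vegfa and Vegfb were lower (16.8%). A total of 20 of the 34 passed at neither age. The median fitted log2 ratio of the 34 genes was -0.11 at 6 weeks and -0.02 at 11 months, against -0.00 and 0.01 over all genes tested. Read on the brightest probe per gene, 0 of the 34 passed with at least 2-fold at 6 weeks (1.81% of all genes did), and at 11 months only Nos3 did (5.27%). Other probes also passed with at least 2-fold, namely that of Vegfa (2.01-fold lower at 6 weeks and 3.12-fold at 11 months), that of Nrp2 (2.25-fold lower at 11 months) and that of Nos3 (2.08-fold higher at 11 months). Of all genes that passed, 56.7% were higher at 6 weeks and 51.7% at 11 months, against 70.1% and 70.9% when arrays were only median-centred. In that setting 0 of the 34 genes passed at 6 weeks, and at 11 months Nrp1, Nrp2, Vegfb and Erg no longer did while Cldn5 did. Without any one of 6-week-old arrays 1, 2, 3 and 4, the number that fell at 6 weeks went from 6 to 0, 1, 1 and 3, and the number that rose from 2 to 0, 0, 1 and 2. Without 11-month-old array 4, the number that rose at 11 months went from 6 to 3.

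**Figure D1:**
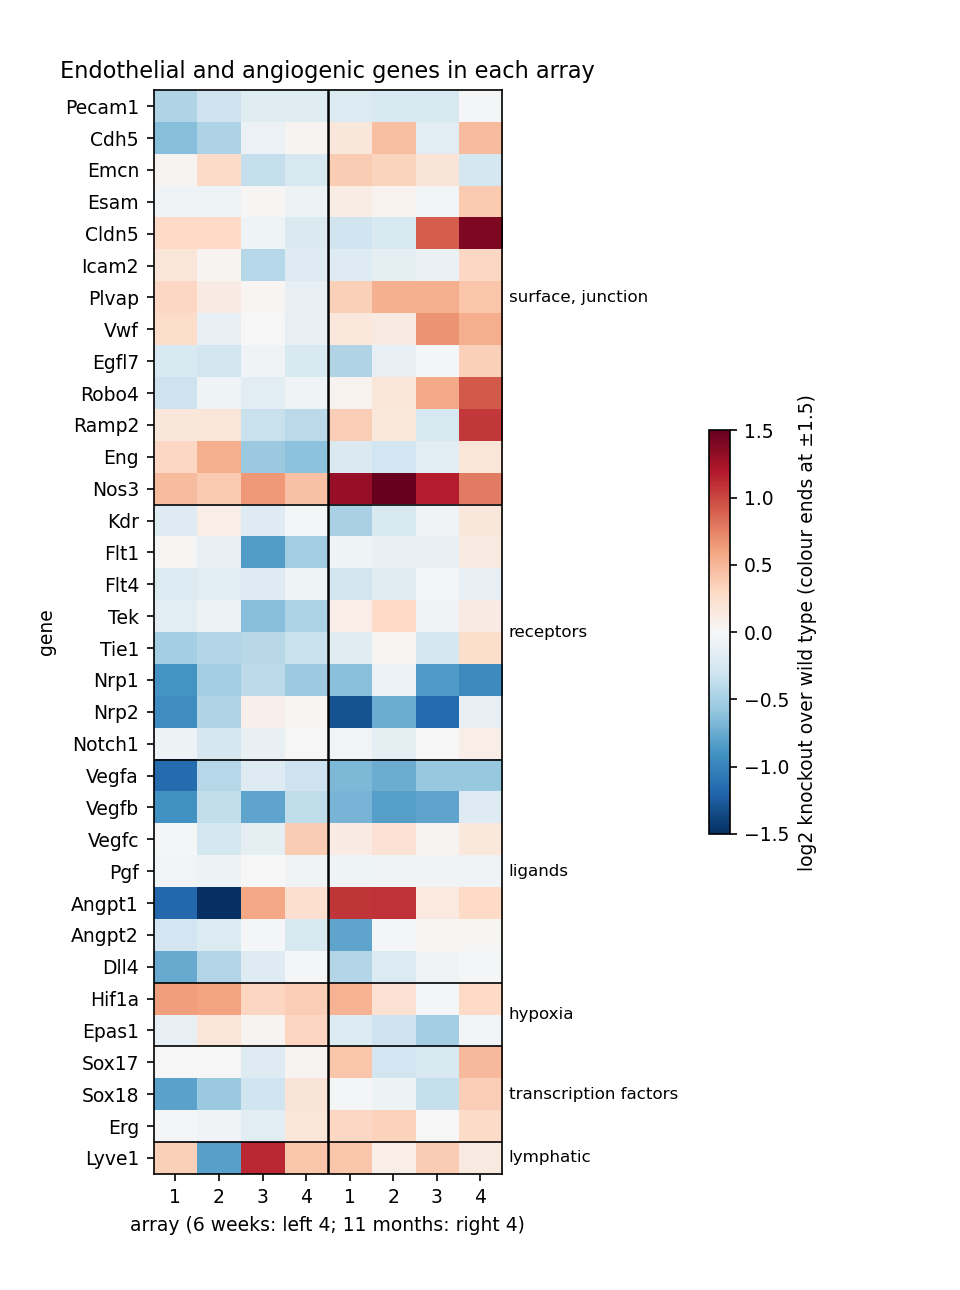
Log2 ratio of knockout over wild type of each of the 34 measured genes (rows, grouped by role) in each array (columns, the 4 arrays of 6 weeks left and the 4 of 11 months right), with red for higher and blue for lower in the knockout. Vegfa, Vegfb and Nrp1 are below 0 in all 8 arrays and Nos3 is above 0 in all 8.

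Across the arrays, 61.2% to 68.2% of spots per channel were well above background and 0 spot measurements were saturated. Prdm16 itself was at -0.58 ± 0.15 at 6 weeks (adjusted p = 0.042) and -0.50 ± 0.15 at 11 months (adjusted p = 0.0371). It was below 0 in 7 of 8 arrays and at 0.06 in 6-week-old array 2, and since the deleted part is not given, the probe is no check of the genotype. Brown adipocyte markers called lower were 0 of 8 at 6 weeks and 8 of 8 at 11 months, with Ucp1, the uncoupling protein of brown fat, at 0.13 and -4.05. Of 8 general adipocyte genes, 5 were higher at 6 weeks and 6 at 11 months and 0 lower (medians 0.45 and 0.60), with Adipoq, the adipocyte hormone adiponectin, at 0.40 and 1.49. The count of 5 was 3, 2, 2 and 3 without 6-week-old arrays 1, 2, 3 and 4. Skeletal muscle genes were called in 0 of 15 at either age, but their array medians ranged from -3.35 to 2.50 at 6 weeks and from -1.25 to 1.66 at 11 months. After this was seen, the fit was repeated without 6-week-old arrays 2 and 4 (muscle medians of -2.71 and -3.35) and 11-month-old array 4 (1.66), although 6-week-old array 3 (2.50) stayed in. Of the 8 genes that passed at 6 weeks, only Vegfb then passed, and Sox18 passed as well. Of the 10 at 11 months, Angpt1, Erg and Robo4 no longer passed, and Epas1 was added.

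Among the ligands, Vegfa encodes the main growth factor for endothelial cells. Its brighter probe (mm9 chr17:46154387-46154446) read -1.15, -0.43, -0.19 and -0.31 in the 4 arrays of 6 weeks and -0.68, -0.75, -0.57 and -0.57 in those of 11 months. All 8 arrays were below 0, and the 11-month-old arrays lay close together while 6-week-old array 1 was far below the other arrays of its age. The fitted value was -0.52 ± 0.13 at 6 weeks (adjusted p = 0.0384) and -0.64 ± 0.13 at 11 months (adjusted p = 0.00833). A second probe (mm9 chr17:46162376-46162435), which with the first spans 8049 bases, fell further, at -1.01 ± 0.19 (adjusted p = 0.015) and -1.64 ± 0.19 (adjusted p = 0.000606), and its arrays ran from -1.87 to -0.67 and from -2.0 to -1.47. The 11-month-old call held in all 19 alternatives, whereas the young call of the brighter probe was lost when any one of the 4 arrays of 6 weeks, or array 1 or 2 of 11 months, was left out (adjusted p = 0.0561 to 0.0798), and without 6-week-old array 1 the value was -0.31.

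Vegfb encodes a related growth factor that signals through Flt1 and Nrp1. Its probe (mm9 chr19:7057245-7057304) read -0.91, -0.37, -0.79 and -0.38 at 6 weeks and -0.69, -0.82, -0.80 and -0.19 at 11 months. All 8 arrays were below 0 and the ages overlapped. The fitted value was nearly equal at the ages, -0.61 ± 0.13 (adjusted p = 0.0221) and -0.62 ± 0.13 (adjusted p = 0.00858), and the difference between ages was -0.01 ± 0.19. At 6 weeks the call was lost without array 1, 2 or 3 of that age (adjusted p = 0.0517 to 0.0952).

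The co-receptor Nrp1, whose product binds VEGF and semaphorins, was the third gene that fell at both ages. Its probe (mm9 chr8:131026650-131026709) read -0.90, -0.52, -0.40 and -0.54 at 6 weeks and -0.62, -0.09, -0.85 and -0.95 at 11 months. All 8 arrays were below 0, with 11-month-old array 2 nearest to it. The fitted value was -0.59 ± 0.10 (adjusted p = 0.0117) and -0.63 ± 0.10 (adjusted p = 0.00295), and the first of these was lost when array 1 of 6 weeks was omitted (adjusted p = 0.0611). Lower at both ages were thus 3 of the 34 genes, beside 3.45% of all genes tested, and higher at both was 1, beside 4.35%. None of the 34 passed in opposite directions at the ages (1.1% of all genes did). A single sign in all 8 arrays was seen in 8 of the 34, beside 15.6% of all genes. Within an age, all 4 arrays had one sign in 15 of the 34 at 6 weeks and in 16 at 11 months, beside 34.5% and 50.3% of all genes.

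The promoters shown are those of the genes called at both ages with a single sign in all 8 arrays. They are RefSeq windows on GRCm38.p6, from 250 bases before to 50 bases after the annotated start, written 5′ to 3′ on the strand of the gene. Capitals mark matches to the hypoxia response cores ACGTG and GCGTG on either strand, so a match on the other strand appears as CACGT or CACGC. The table of promoters holds 3 of these 4 genes, and Nos3 has no entry.
Vegfa, upstream start (chr17:46032328-46032627, minus strand): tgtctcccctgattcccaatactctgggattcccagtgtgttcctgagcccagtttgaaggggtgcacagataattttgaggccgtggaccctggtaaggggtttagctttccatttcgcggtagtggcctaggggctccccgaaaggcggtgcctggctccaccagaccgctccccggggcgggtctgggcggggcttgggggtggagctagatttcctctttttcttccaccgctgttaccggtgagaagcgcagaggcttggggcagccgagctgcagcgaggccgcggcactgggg
Vegfa, downstream start (chr17:46025114-46025413, minus strand): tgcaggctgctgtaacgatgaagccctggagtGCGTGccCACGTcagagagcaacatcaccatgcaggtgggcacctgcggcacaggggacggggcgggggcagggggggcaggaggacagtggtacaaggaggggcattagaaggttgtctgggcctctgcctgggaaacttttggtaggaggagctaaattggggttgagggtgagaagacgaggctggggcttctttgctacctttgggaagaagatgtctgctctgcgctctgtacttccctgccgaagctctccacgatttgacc
Vegfb (chr19:6987602-6987901, minus strand): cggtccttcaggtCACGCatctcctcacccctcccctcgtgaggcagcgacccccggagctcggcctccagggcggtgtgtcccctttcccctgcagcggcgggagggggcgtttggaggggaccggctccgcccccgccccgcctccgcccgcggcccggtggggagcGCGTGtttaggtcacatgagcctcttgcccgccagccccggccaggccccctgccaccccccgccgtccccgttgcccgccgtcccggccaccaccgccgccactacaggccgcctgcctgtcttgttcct
Nrp1 (chr8:128358823-128359122, plus strand): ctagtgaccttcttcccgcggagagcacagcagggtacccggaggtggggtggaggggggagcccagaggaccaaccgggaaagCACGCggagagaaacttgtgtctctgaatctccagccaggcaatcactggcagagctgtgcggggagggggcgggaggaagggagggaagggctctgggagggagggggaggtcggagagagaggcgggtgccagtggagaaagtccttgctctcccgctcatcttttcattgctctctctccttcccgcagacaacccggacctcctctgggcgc
The hypoxia cores were present in 13 of the 28 promoters listed for 21 of the 35 genes (46.4%), and in 43.8% of all 32851 promoters of the table, so a match was about as common as elsewhere. The ETS core CGGAAGT, searched on either strand, was present in 0 of the 28 and in 6.42% of all promoters. Of the windows shown, the upstream Vegfa start held 0 matches to the hypoxia cores, the downstream Vegfa start 2, Vegfb 2 and Nrp1 1. The downstream Vegfa window lies after the upstream start, within the gene, so its matches are not bases upstream of the whole gene. Whether any match is a working site was not tested.

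None of the remaining ligands passed as lower at either age, although the fitted values of all 7 ligands were below 0 at 6 weeks. Angpt1, an agonist of the receptor Tek that is made by cells around vessels, rose at 11 months to 0.65 ± 0.16 (adjusted p = 0.0163) and was at -0.52 ± 0.16 at 6 weeks (adjusted p = 0.0651). Its probe (mm9 chr15:42256335-42256394) read -1.18, -1.72, 0.59 and 0.25 at 6 weeks and 1.07, 1.08, 0.15 and 0.30 at 11 months. Within each age the arrays with the knockout in Cy5 (6-week-old arrays 3 and 4, 11-month-old arrays 1 and 2) all lay above those with it in Cy3, and the dye coefficient of Angpt1 was 0.68 (adjusted p = 0.024). Without a dye coefficient the 11-month-old value did not pass (adjusted p = 0.219), nor with array 3 or 4 of 11 months omitted (adjusted p = 0.067 and 0.0732).

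Vegfc, a growth factor of lymphatic vessels, was at -0.01 ± 0.09 and 0.14 ± 0.09, and Pgf, placenta growth factor, at -0.05 ± 0.05 and -0.05 ± 0.05. Angpt2, which competes with Angpt1 for Tek, was at -0.19 ± 0.13 and -0.19 ± 0.13. Dll4, a Notch ligand of sprouting tip cells, was below 0 in all 8 arrays, at -0.35 ± 0.12 (adjusted p = 0.0875) and -0.18 ± 0.12 (adjusted p = 0.291). These 4 passed at neither age. In all, 0 of 7 ligands were called higher and 2 lower at 6 weeks, and 1 higher and 2 lower at 11 months, with medians of -0.35 and -0.18. The shares of all genes called higher and lower were 9.21% and 7.02% at 6 weeks and 17.9% and 16.8% at 11 months.

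**Figure D2:**
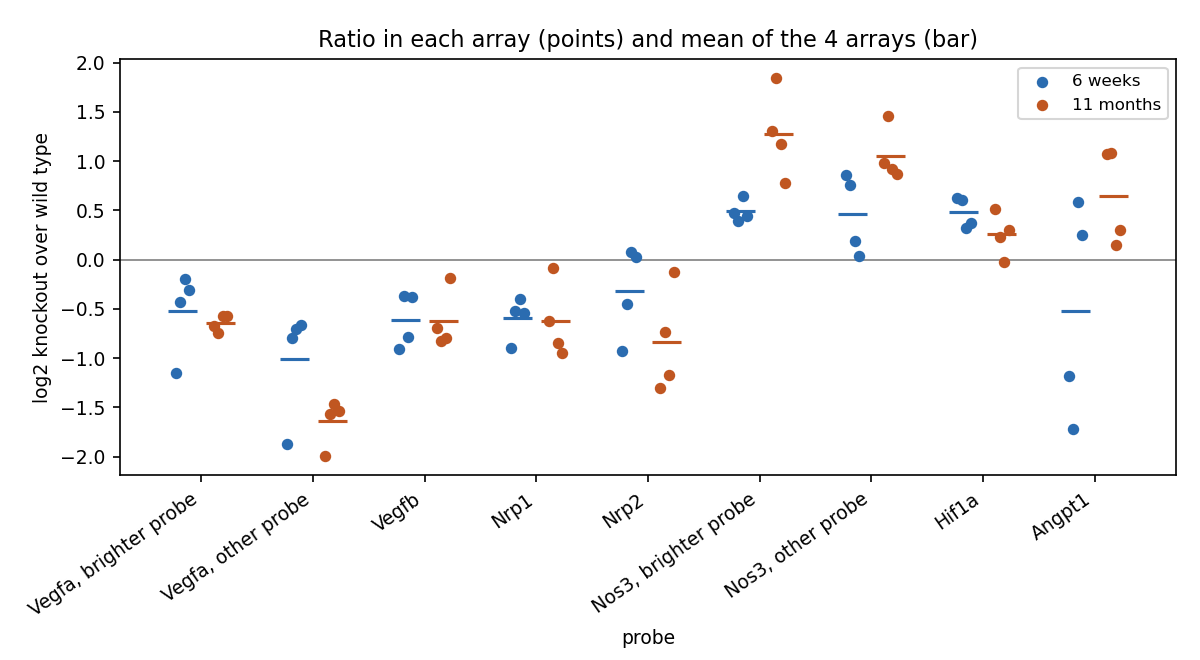
Log2 ratio of knockout over wild type in each array (points, blue for 6 weeks and orange for 11 months) and the mean of the 4 arrays of an age (bars) for 9 probes of 7 genes. The second Vegfa probe lies below the brighter one at both ages, the Nos3 points are all above 0, and the Angpt1 points spread from -1.72 to 1.08.

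The receptors fell or did not pass. At 6 weeks the fitted values of all 8 were below 0 (median -0.33), and Flt1, Tie1 and Nrp1 fell (7.02% of all genes did). Flt1, a VEGF receptor often described as a decoy, read 0.02, -0.12, -0.84 and -0.52 at 6 weeks, and only arrays 3 and 4, with the knockout in Cy5, were clearly low. Its fitted value was -0.36 ± 0.10 (adjusted p = 0.0438), a call that ended in 15 of the 19 alternatives, among them without any one of 6-week-old arrays 1 to 4 or 11-month-old arrays 1, 2 and 4 (adjusted p = 0.0518 to 0.146). Tie1, an orphan receptor that modulates Tek, was even across arrays at -0.51, -0.44, -0.42 and -0.33, with a fitted value of -0.42 ± 0.09 (adjusted p = 0.0192). At 11 months the Tie1 arrays read -0.18, 0.01, -0.26 and 0.26, all above the 6-week-old arrays, and the fitted value was -0.04 ± 0.09. The Tie1 call at 6 weeks ended without array 1, 2 or 3 (adjusted p = 0.0676 to 0.0901).

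Nrp2, the neuropilin of veins and lymphatic vessels, fell at 11 months. Its brighter probe (mm9 chr1:62865129-62865188) read -0.93, -0.45, 0.08 and 0.03 at 6 weeks and -1.31, -0.74, -1.17 and -0.13 at 11 months, so that the old arrays were all below 0 and overlapped with the young. The fitted value at 11 months was -0.84 ± 0.22 (adjusted p = 0.0217) and it was no longer called when array 1, 2 or 3 of 11 months was omitted (adjusted p = 0.078 to 0.104). A second probe (mm9 chr1:62843298-62843357) gave -1.17 ± 0.20 (adjusted p = 0.00354) at 11 months and -0.07 ± 0.20 at 6 weeks.

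The main VEGF receptor Kdr passed at neither age on its brighter probe, at -0.08 ± 0.09 and -0.15 ± 0.09. Its other probe, printed in 10 spots, was lower at 6 weeks, at -0.37 ± 0.08 (adjusted p = 0.0234, where 16.6% of all probes passed), and read -0.57, -0.53, -0.41 and 0.03. At 11 months that probe was at -0.05 ± 0.08, so the probes differed in call at 6 weeks and not at 11 months. Tek, the angiopoietin receptor, was below 0 in all 4 arrays of 6 weeks, at -0.34 ± 0.10 (adjusted p = 0.0525), and at 0.12 ± 0.10 at 11 months. Flt4, the receptor of lymphatic growth factors, was below 0 in all 8 arrays with fitted values of -0.16 ± 0.06 and -0.15 ± 0.06 that did not pass, and Notch1 was at -0.11 ± 0.06 and -0.02 ± 0.06. At 11 months the receptor median was -0.09, with 0 of 8 higher and 2 lower, beside 17.9% and 16.8% of all genes.

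Surface, junction and enzyme genes that are used as general endothelial markers numbered 13. At 6 weeks 1 rose (Nos3) and 1 fell (Pecam1), with a median of -0.08 that turned to 0.12 when arrays were only median-centred. At 11 months 4 rose (Nos3, Plvap, Vwf and Robo4) and 0 fell, with a median of 0.23. Of all genes tested, 9.21% rose and 7.02% fell at 6 weeks, and 17.9% rose and 16.8% fell at 11 months. Nos3 had the largest fitted value of the 34 genes at 11 months when each gene is read on its brightest probe, below the second Vegfa probe in size. Its brighter probe (mm9 chr5:23890038-23890097) read 0.48, 0.40, 0.65 and 0.44 at 6 weeks and 1.31, 1.84, 1.18 and 0.78 at 11 months. Every 11-month-old array was above every 6-week-old array. The fitted value was 0.49 ± 0.12 at 6 weeks (1.4-fold, adjusted p = 0.0303) and 1.28 ± 0.12 at 11 months (2.42-fold, adjusted p = 0.000198).

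The second Nos3 probe (mm9 chr5:23889636-23889695, 10 spots) read 0.86, 0.76, 0.19 and 0.04 at 6 weeks and 0.98, 1.46, 0.92 and 0.87 at 11 months. It rose at 11 months (1.06 ± 0.15, adjusted p = 0.0015) and did not pass at 6 weeks (0.46 ± 0.15, adjusted p = 0.0752). The brighter probe overlaps by 33 bases a probe of Atg9b, an autophagy gene on the opposite strand, whose own values of 0.13 ± 0.07 and 0.21 ± 0.07 did not pass. The 11-month-old call of Nos3 held in all 19 alternatives, with values from 1.12 to 1.49. At 6 weeks it was lost in 8 of them, such as with array 1, 2 or 3 of that age omitted (adjusted p = 0.0915 to 0.137).

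Plvap, a protein of the diaphragms of fenestrated capillaries, read 0.31, 0.12, 0.03 and -0.12 at 6 weeks and 0.36, 0.53, 0.55 and 0.41 at 11 months. The ages did not overlap, and the fitted value went from 0.09 ± 0.07 to 0.46 ± 0.07 (adjusted p = 0.00157 at 11 months). Its other probe was at 0.13 ± 0.05 at 11 months and did not pass (adjusted p = 0.0996). Vwf, the clotting factor stored in endothelial granules, read 0.16, 0.14, 0.68 and 0.55 at 11 months, with a fitted value of 0.38 ± 0.08 (adjusted p = 0.00971), and 0.01 ± 0.08 at 6 weeks. The 11-month-old arrays 3 and 4, with the knockout in Cy3, were the higher pair. The 11-month-old calls of Plvap and Vwf held in all 19 alternatives.

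Robo4, an endothelial guidance receptor, was below 0 in all 4 arrays of 6 weeks (-0.31, -0.06, -0.16 and -0.05) and above 0 in all 4 of 11 months (0.05, 0.18, 0.56 and 0.91). The fitted value at 11 months was 0.43 ± 0.12 (adjusted p = 0.0243). This call did not survive omission of array 2, 3 or 4 of 11 months (adjusted p = 0.0598 to 0.0878). Pecam1, the adhesion molecule CD31, was the only gene of this group that fell at either age: its arrays read -0.46, -0.31, -0.18 and -0.18 at 6 weeks and -0.20, -0.23, -0.24 and -0.02 at 11 months. All 8 were below 0, with fitted values of -0.28 ± 0.07 (adjusted p = 0.0293) and -0.18 ± 0.07 (adjusted p = 0.08), and leaving out any 6-week-old array ended the call (adjusted p = 0.0656 to 0.13).

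The other 8 general markers passed at neither age. Cldn5, a tight junction protein, came nearest at 11 months, at 0.45 ± 0.15 (adjusted p = 0.05, not below the threshold), and read -0.30 and -0.22 in the arrays with the knockout in Cy5 against 0.91 and 1.40 in those with it in Cy3. The dye coefficient of Cldn5 was -0.47 (adjusted p = 0.0479). The endothelial cadherin Cdh5 was at -0.29 ± 0.11 and 0.23 ± 0.11, and Ramp2, a partner of the adrenomedullin receptor, at -0.10 ± 0.18 and 0.34 ± 0.18. The fitted values of Emcn, Esam, Icam2, Egfl7 and Eng lay between -0.20 and 0.16 at both ages, but single arrays spread more widely. At 6 weeks Eng read 0.31 and 0.55 in the arrays with the knockout in Cy3 and -0.56 and -0.61 in those with it in Cy5. The dye coefficient of Eng was -0.32 (adjusted p = 0.0693).

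**Figure D3:**
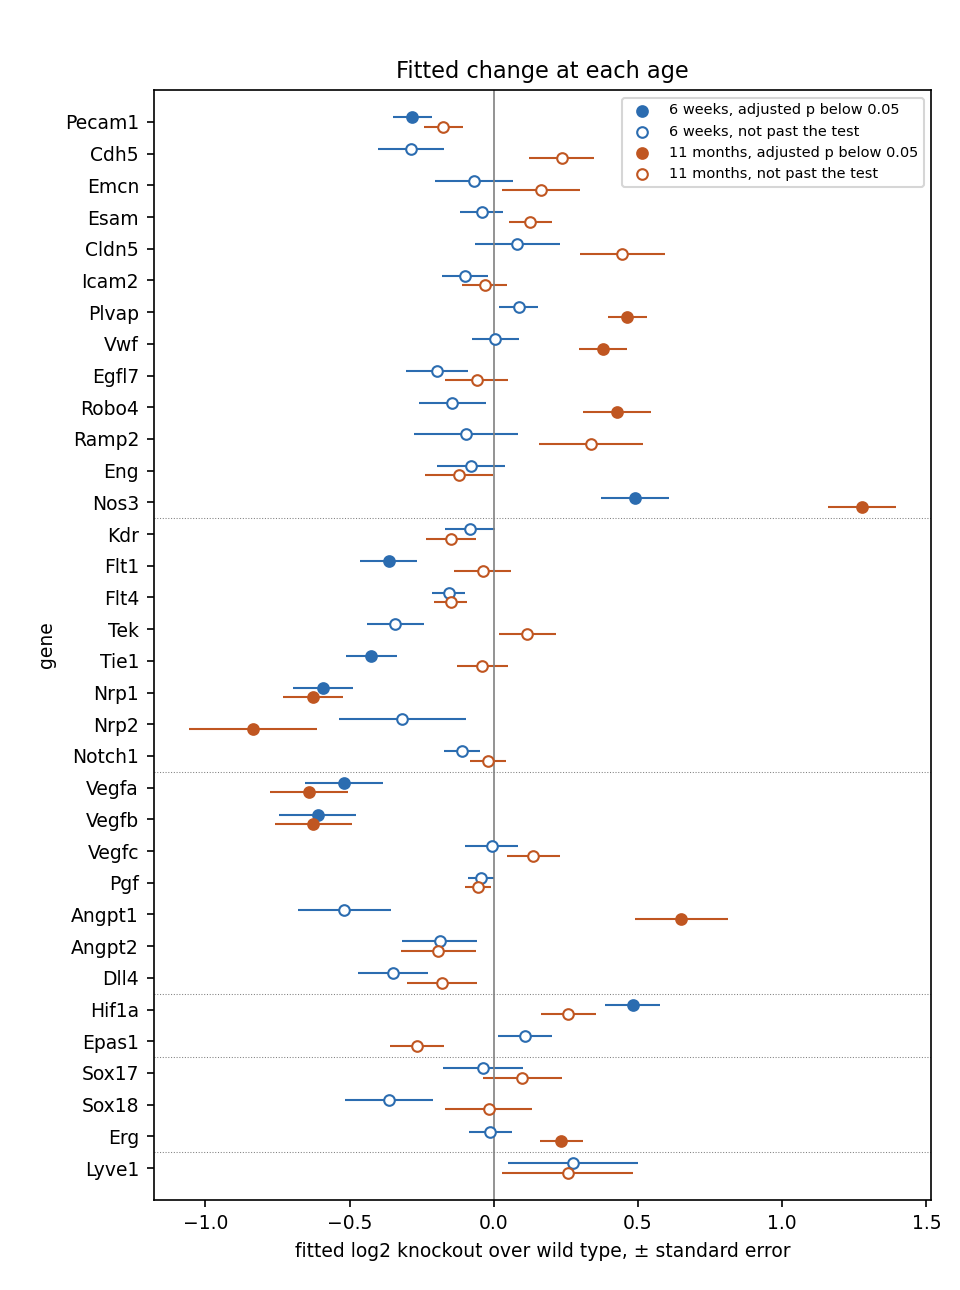
Fitted log2 ratio of knockout over wild type ± standard error for each of the 34 genes at 6 weeks (blue) and 11 months (orange), with filled points where the limma adjusted p was below 0.05 and dotted lines between the role groups. Filled points lie below 0 for Vegfa, Vegfb and Nrp1 at both ages, and the highest value is that of Nos3 at 11 months, 1.28.

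Hif1a, the oxygen-labile subunit of hypoxia-inducible factor 1, rose at 6 weeks, where its textbook target Vegfa fell, with arrays at 0.63, 0.60, 0.32 and 0.37 (mm9 chr12:75047269-75047329). All 4 were above 0, and the fitted value was 0.48 ± 0.10 (adjusted p = 0.0173). At 11 months it read 0.52, 0.23, -0.02 and 0.30, with a fitted value of 0.26 ± 0.10 that did not pass (adjusted p = 0.0727). This call was lost when array 1 or 2 of 6 weeks was omitted (adjusted p = 0.0847 and 0.0728).

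Epas1, which encodes the related factor HIF-2 alpha and is abundant in endothelium, was at 0.11 ± 0.09 and -0.27 ± 0.09 (adjusted p = 0.0613 at 11 months) on its brightest probe. The 11-month-old arrays of that probe were all below 0, from -0.51 to -0.04. Its other 2 probes passed as lower at 11 months, at -0.73 ± 0.11 (adjusted p = 0.00197) and -0.21 ± 0.06 (adjusted p = 0.0372), where 33.8% of all probes passed. The first of these read 0.40, 0.10, 0.03 and 0.05 at 6 weeks and -0.62, -0.46, -0.70 and -1.13 at 11 months, with no overlap between the ages. The second read 0.17 and 0.17 in the 11-month-old arrays with the knockout in Cy5 and -0.58 and -0.60 in those with it in Cy3, so its arrays fell on both sides of 0. The fitted value of Epas1 was thus below 0 on all 3 probes at 11 months, and its call depended on the probe.

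Of 10 genes of the oxygen-sensing machinery, 9 were measured. Egln3, a prolyl hydroxylase that marks hypoxia factors for degradation and is itself hypoxia-inducible, was the only one to pass at 6 weeks, where it was higher at 0.74 ± 0.13 (adjusted p = 0.0113), and it fell at 11 months to -0.96 ± 0.13 (adjusted p = 0.00109). Its arrays read 1.09, 0.68, 0.67 and 0.52 against -1.28, -1.36, -0.24 and -0.98, so the sign was opposite in every array of the ages. The rise at 6 weeks ended without 6-week-old array 1 or 3. Egln2, the next in size at 6 weeks, was at -0.27 ± 0.09 and did not pass. At 11 months 3 of the 9 fell, Egln3, Egln1 (-0.96 ± 0.07) and Hif1an (-0.23 ± 0.05), which all encode hydroxylases that restrain the factors. Arnt, the dimer partner (0.31 ± 0.08), and Cited2, a competitor for the co-activator (0.82 ± 0.20), were higher, but neither passed when array 2 or 3 of 11 months was omitted, and only Cited2 did without array 4.

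Of 20 genes known as targets of the hypoxia factors, 18 were measured. At 6 weeks 3 rose and 0 fell: the glycolytic genes Ldha (0.80 ± 0.18) and Aldoa (0.52 ± 0.11), and Pdk1 (0.54 ± 0.12), which curbs entry of pyruvate into mitochondria. None of these 3 passed with array 1 or 2 of 6 weeks omitted or with median centring, and only Pdk1 did without array 3. At 11 months 1 rose, Pfkfb4 (0.55 ± 0.12), and 7 fell, most of all the glycolytic gene Pgk1 (-1.55 ± 0.12), the transcriptional repressor Bhlhe40 (-1.34 ± 0.12), Ankrd37 (-1.06 ± 0.14) and hexokinase Hk2 (-0.86 ± 0.22). Pfkfb4 did not pass with array 1 or 2 of 11 months omitted. The count of 7 went to 4 without 11-month-old array 2 and to 3 with median centring. Pgk1 read -0.27, 0.38, -0.20 and -0.34 at 6 weeks and -1.45, -1.63, -1.81 and -1.31 at 11 months, so the old arrays all lay below the young. The medians of the target list were -0.05 and -0.25, beside -0.00 and 0.01 over all genes.

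**Figure D4:**
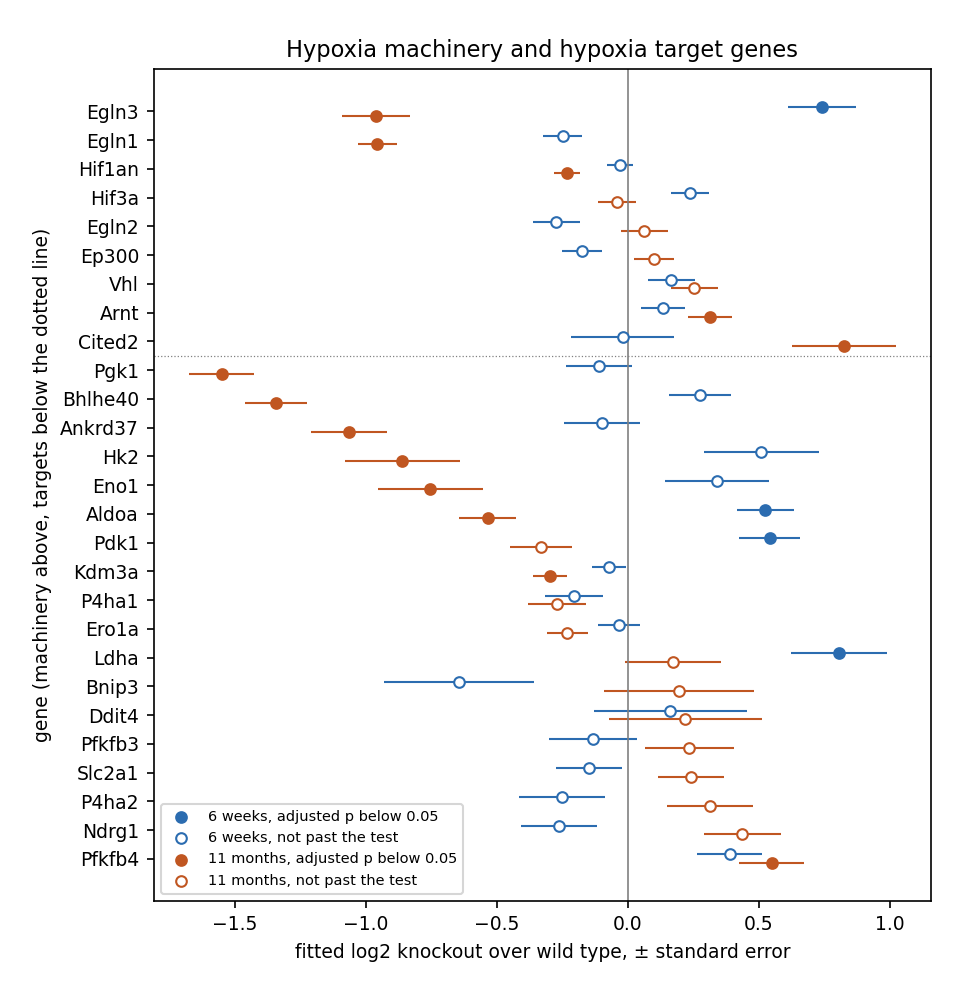
Fitted log2 ratio of knockout over wild type ± standard error at 6 weeks (blue) and 11 months (orange) for 9 genes of the oxygen-sensing machinery (above the dotted line) and 18 hypoxia target genes (below it), with filled points where the limma adjusted p was below 0.05. Egln3 is at 0.74 at 6 weeks and -0.96 at 11 months, and Pgk1 is the lowest point at -1.55.

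Of the endothelial transcription factors, Erg, an ETS factor that maintains endothelial identity, rose at 11 months to 0.23 ± 0.07 (adjusted p = 0.0431). It read 0.31, 0.34, -0.00 and 0.29, with array 3 apart from the others at 0. The call ended in 10 of the 19 alternatives, such as with array 1 or 2 of 6 weeks, or array 1, 2 or 4 of 11 months, omitted (adjusted p = 0.0575 to 0.156), and the other Erg probe was at 0.04 ± 0.05. Sox17, of arterial endothelium, was at -0.04 ± 0.14 and 0.10 ± 0.14. Sox18, of lymphatic and vascular development, was at -0.36 ± 0.15 and -0.02 ± 0.15, and neither passed. Lyve1, a hyaluronan receptor of lymphatic vessels that some macrophages also carry, read 0.36, -0.81, 1.13 and 0.42 at 6 weeks and 0.42, 0.10, 0.38 and 0.13 at 11 months. Its 6-week-old arrays spread on both sides of 0, and the fitted values of 0.28 ± 0.23 and 0.26 ± 0.23 did not pass.

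Read on the brightest probe per gene, the difference between ages (11 months minus 6 weeks) passed in 4 of the 34 genes, beside 18.2% of all genes tested (8.47% higher and 9.73% lower). All 4 were higher at 11 months. They were Angpt1 at 1.17 ± 0.23 (adjusted p = 0.0134), Nos3 at 0.79 ± 0.17 (adjusted p = 0.018), Robo4 at 0.57 ± 0.16 (adjusted p = 0.0494) and Plvap at 0.38 ± 0.10 (adjusted p = 0.0331). The direction depended on the probe read. The second Nrp2 probe passed as lower, at -1.09 ± 0.29 (adjusted p = 0.0371), as did another Epas1 probe, at -0.87 ± 0.16 (adjusted p = 0.0107). The array ratios of the ages did not overlap in 5 of the 34 genes (Plvap, Robo4, Nos3, Tek and Tie1), beside 19.5% of all genes. The differences of Vegfa (-0.12 ± 0.19), Vegfb (-0.01 ± 0.19) and Nrp1 (-0.04 ± 0.15) did not pass, which does not show that the ages were equal. Leaving out any one array ended the difference of Robo4, omitting array 2, 3 or 4 of 6 weeks, or 1, 2 or 3 of 11 months, ended that of Plvap (adjusted p = 0.0682 to 0.0926), and leaving out 6-week-old array 4 ended that of Nos3 (adjusted p = 0.0511). With median centring Angpt1 alone passed, and without 6-week-old arrays 2 and 4 and 11-month-old array 4 together 0 of the 34 did. The difference of Angpt1 also did not pass without a dye coefficient.

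Set side by side by role, the fitted medians at 6 weeks were -0.08 for general markers, -0.33 for receptors, -0.35 for ligands and 0.29 for the pair of hypoxia factors. At 11 months they were 0.23, -0.09, -0.18 and -0.00. The array medians of the general markers were 0.17, 0.04, -0.09 and -0.18 at 6 weeks and 0.11, 0.14, -0.02 and 0.41 at 11 months, so the ages overlapped. Those of the ligands were below 0 in all 8 arrays, from -0.75 to -0.05 and from -0.44 to -0.03. Some lay close to 0: the ligand median was the Pgf value (-0.05) in 6-week-old array 4 and 11-month-old arrays 2 and 3. In 11-month-old array 4 it was the Dll4 value (-0.03). The array medians of the receptors were below 0 in 7 of 8 arrays, the exception being 11-month-old array 4 at 0.11. That array had the highest muscle median of its age, 1.66, and the part of muscle content in the endothelial ratios was not tested beyond the fits without it and with the muscle median as a covariate.

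**Figure D5:**
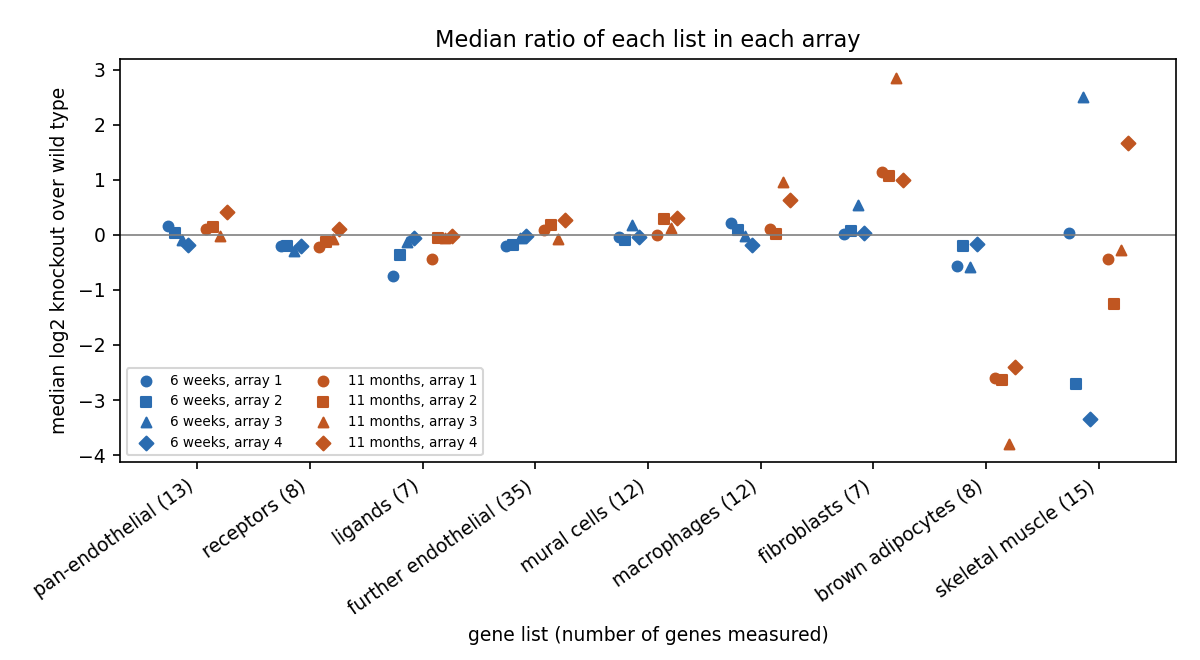
Median log2 ratio of knockout over wild type of each gene list in each array (blue for 6 weeks, orange for 11 months, 1 symbol per array number), with the number of genes measured in brackets. The endothelial lists stay near 0 while brown adipocyte markers fall to between -3.79 and -2.40 at 11 months and skeletal muscle genes range from -3.35 to 2.50.

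In a further list of 35 endothelial genes, all measured, the difference between ages passed as higher at 11 months in 8 and lower in 1, beside 18.2% of all genes. The array medians of the list overlapped between the ages, from -0.20 to -0.03 and from -0.08 to 0.27. At 6 weeks 0 rose and 4 fell: the endothelin receptor Ednrb (-0.49 ± 0.11), the arterial ligand Efnb2 (-0.45 ± 0.11), the Notch ligand Jag2 (-0.33 ± 0.06) and the transcription factor Ets1 (-0.30 ± 0.08). None of these 4 passed with median centring. Only Jag2 passed without array 1 of 6 weeks and only Ednrb without array 3, and 2 of the 4 passed when array 2 or 4 of 6 weeks, or array 1, 2 or 3 of 11 months, was omitted. At 11 months 7 rose and 1 fell, and the largest rises were those of Cd34 (0.91 ± 0.16), a surface protein that stromal progenitors also carry, the peptide Apln (0.90 ± 0.15), the lectin-like receptor Cd93 (0.67 ± 0.10) and the Notch ligand Jag1 (0.62 ± 0.14). The gene that fell was Myct1 (-0.50 ± 0.06). Cd34 read -0.15, -0.44, 0.19 and -0.25 at 6 weeks and 0.62, 0.82, 1.5 and 0.71 at 11 months, without overlap, and the list medians were -0.13 and 0.04. Fibroblast markers were called higher in 7 of 7 at 11 months (median 1.52, and 4 of 7 without 11-month-old array 1) and in 0 of 7 at 6 weeks. Their part in the result was not tested.

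Of 28 modulators of vessel growth, 26 were measured. Col18a1, which encodes the collagen that endostatin is cut from, rose at both ages, at 0.93 ± 0.08 (adjusted p = 0.0011) and 1.63 ± 0.08 (adjusted p = 2.25e-05), and held in all 19 alternatives. Thbs1, a secreted inhibitor of angiogenesis, was at -0.25 ± 0.24 at 6 weeks and 2.29 ± 0.24 at 11 months (4.9-fold, adjusted p = 0.00034), with arrays at 3.20, 3.64, 1.66 and 0.67 that were all above the 6-week-old arrays. Also among the 9 that rose at 11 months were the related inhibitor Thbs2 (0.94 ± 0.21) and Angptl2 (0.81 ± 0.14), and the 2 that fell were Ramp3 (-0.65 ± 0.15) and Angptl6 (-0.46 ± 0.06). The growth factor gene Vegfd was another of the 9. Its 11-month-old call held in all 19 alternatives, with values from 0.69 to 1.03. At 6 weeks 4 rose, Col18a1, the fibroblast growth factor Fgf1 (0.82 ± 0.17), Vegfd (0.41 ± 0.10) and Sema3a (0.38 ± 0.09), and 2 fell, Angptl6 (-0.29 ± 0.06) and Vash1 (-0.24 ± 0.06). Of the 4, only Col18a1 passed without any one of 6-week-old arrays 1, 2, 3 and 4, and 2 passed without 11-month-old array 2. Neither Angptl6 nor Vash1 passed as lower with array 1, 2 or 3 of 6 weeks omitted, and only Angptl6 did without array 4 of 6 weeks or array 2 of 11 months.

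Markers of other cells around vessels moved as well. Of 12 mural cell markers, 0 were higher and 1 was lower at 6 weeks, the pericyte gene Rgs5 (-0.61 ± 0.16), which did not pass with any one array of 6 weeks, or array 1 or 2 of 11 months, omitted. At 11 months 5 were higher (of these, 2 without array 1 or 4 of that age and 3 without array 2), among them the smooth muscle genes Acta2 (0.70 ± 0.10) and Tagln (0.47 ± 0.10), and 1 was lower, the pericyte potassium channel gene Kcnj8 (-0.43 ± 0.07). The pericyte gene Cspg4 and Mcam were also among the 5 that were higher. Over the 19 alternatives Cspg4 was at 0.55 to 0.90 and Mcam at 0.29 to 0.97, and each call ended in 5 of them. Of 12 macrophage markers, 0 were higher and 1 lower at 6 weeks, and 8 were higher at 11 months (median 0.45, array medians 0.02 to 0.96). The 6-week-old call, that of Lyz2, was lost with any one array of 6 weeks, or array 1 or 2 of 11 months, omitted, and with no dye coefficient 3 of the 8 passed at 11 months. Of 5 platelet genes measured, 1 was higher and 1 lower at each age (medians 0.01 and -0.10). The chemokine gene Pf4 was higher at 11 months (1.23 ± 0.19), Ppbp was higher at 6 weeks (0.44 ± 0.10) and lower at 11 months (-0.44 ± 0.10), and Itga2b was lower at 6 weeks (-0.22 ± 0.06). Both 6-week-old calls were lost with any one array of that age omitted, that of Itga2b also without array 2 or 3 of 11 months, and that of Ppbp at 11 months without array 1. Red blood cell genes were called in 0 of 4 at either age. All of these are ratios of whole tissue, and their part in the endothelial values was not tested.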

How the data were processed

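Whole brown adipose tissue RNA was hybridised to 8 Agilent 2-colour arrays, 4 per age, with knockout and wild type on each. The deposited scanner files hold spot intensity per channel and a log10 ratio of Cy5 over Cy3, per the file headers (Feature Extraction 10.5.1.1 at 6 weeks, 10.10.1.1 at 11 months, probe positions on mm9). The authors' deposited value table holds log2 ratios. The sources used here do not name its background correction or normalization, and it served as an alternative.

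Mean intensities were corrected with normexp (offset 50) against the median background, loess-normalised within arrays, and turned to log2 knockout over wild type by the labelled dyes. Control spots and outlier spots were left out and spots of a probe averaged. Probes well above background in at least 4 of 16 channel measurements, with values from 3 or more arrays of each age, were kept (26819), and the brightest kept probe stood for a gene. Symbols came from RefSeq GRCm38.p6 by accession for 14798 genes and from the array for 6917. limma 3.58.1 (R 4.3.3) fitted a coefficient per age and a shared dye coefficient, which passed in 1104 genes, with 5 residual degrees of freedom, and p-values were Benjamini-Hochberg adjusted over 21715 genes. The procedure was tested on simulated data. The number of arrays limits the precision.

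All measured members are named, and in the other lists up to 4 called genes with the largest fitted values per comparison, or the 2 largest where fewer than 2 were called. Myct1, Hif1an, Pfkfb4, Ramp3, Angptl6 and Vash1, outside that rule in the comparison where they appear, were named after their values were seen. The members and lists were chosen with earlier results of these data known. Alternatives changed the background correction, normalization, filter, probe choice, dye coefficient, model and arrays included.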

Additional observations from a re-analysis of the deposited data

Results flagged for a closer look

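In 3 of 68 groups of 4 arrays, a single array lay far from the other arrays of its age, where chance gives about 1 in 20. Angpt2 read -0.79 in 11-month-old array 1 against -0.03 to 0.03 in the other arrays of that age. Erg read -0.0011 in 11-month-old array 3 against 0.29 to 0.34. Pgf read -0.069 in 11-month-old array 1 against -0.051 to -0.049, a small distance.

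Read on the brightest probe per gene, the knockout over wild-type ratio differed between the ages in 4 of the 34 genes, beside 18.2% of all genes. The test was limma's test of the difference (11 months minus 6 weeks). The differences were 1.17 for Angpt1 (adjusted p = 0.0134), 0.79 for Nos3 (adjusted p = 0.018), 0.57 for Robo4 (adjusted p = 0.0494) and 0.38 for Plvap (adjusted p = 0.0331). The arrays of the ages did not overlap for Nos3, Robo4 and Plvap, and did for Angpt1. The other probes of Nos3 and Plvap did not pass in the difference, nor did Angpt1 without a dye coefficient. Probes of Nrp2 and Epas1 other than the brightest passed in it as lower, at -1.09 (adjusted p = 0.0371) and -0.87 (adjusted p = 0.0107). Age cannot be told apart from batch in any of them.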

How the results depend on the processing

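The 19 alternatives kept the calls of Nos3, Plvap, Vwf and Vegfa at 11 months. Of 1938 recomputed values of the 34 genes, 87 changed sign, and 0 of these belonged to a called value. With arrays only median-centred, 949 genes in all passed at 6 weeks (3524 as reported), 4909 at 11 months (7544) and 552 in the difference (3952). Of the 34 genes, 0 fell and 0 rose at 6 weeks, 1 fell at 11 months and 1 was higher in the difference, and medians went to 0.12 (general markers), -0.15 (receptors) and 0.50 (hypoxia factors) at 6 weeks and 0.45 (general markers) at 11 months. Vash1 at 6 weeks went from -0.24 to 0.0014, and the cause was not tested. With the scanner software's log ratios, 2277 genes passed at 6 weeks, 3 of the 34 fell and 1 rose, and the receptor median was -0.38. With the mean of all kept probes, 1 of the 34 was lower in the difference (0 as reported). With no dye coefficient, 1 of the 34 rose at 6 weeks and 1 was higher in the difference, where 2519 genes passed. Without 6-week-old arrays 2 and 4 and 11-month-old array 4 (chosen after seeing the data), 804 genes passed at 6 weeks, 4871 at 11 months and 688 in the difference, with 2 of the 34 lower and 0 higher at 6 weeks, 3 higher at 11 months and 0 higher in the difference, and a receptor median of -0.41. With the muscle median as a covariate (chosen after seeing the data), 3 of the 34 fell and 1 rose at 6 weeks and 2 were higher in the difference, where 2612 genes passed. Leaving out 1 array at a time gave 1238 to 4286 genes at 6 weeks, 5027 to 7644 at 11 months and 2119 to 3225 in the difference. Over the same fits, 0 to 7 of the 34 fell and 0 to 2 rose at 6 weeks, 3 to 6 fell and 3 to 7 rose at 11 months, and 0 to 2 were lower and 1 to 5 higher in the difference, with a 6-week-old receptor median of -0.35 to -0.25.

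The deviations of arrays of one number from the means of their ages had correlations of -0.20 to -0.05. Arrays of one number carried the knockout in opposite dyes and the dye was not removed. The correlations therefore cannot decide whether the numbers pair the arrays. With the replicate number as a block, 4247 genes passed in the difference, with 6 of the 34 higher and 0 lower.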
